A study of Mus musculus with 24 samples.

Results

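The extracellular metalloproteases described here are the members of the Adam, Adamts and Mmp gene families that were detected in RNA of mouse brain endothelial fractions. A member was a protein-coding gene whose symbol begins with Adam, Adamts or Mmp followed by a number, and whose mean read count reached 10 in at least 1 of 8 groups of libraries. Of 75 protein-coding genes with such symbols, 46 met this minimum, among 17159 genes that met it in all and 45468 genes in the deposited tables. They comprised 16 of 33 Adam genes, 18 of 19 Adamts genes and 12 of 23 Mmp genes. Among the members, 39 reached the minimum in all 8 groups, 6 in 2 to 7 groups, and Adam21 in 1 group. The members nearest above the minimum were Adam21, Adam18 and Adam32, with highest group means of 13.7, 15 and 15.3 counts, and the nearest below it were Adam1b and Adam5, with 9.67 and 8 counts. Of the 29 genes below it, 15 had no count in any library.

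These proteases are zinc-dependent enzymes that work at the cell surface or outside the cell. Adam proteins are membrane-anchored and release the outer parts of other membrane proteins, such as growth factors and Notch receptors, although several members lack a working catalytic site. Adamts proteins are secreted and carry thrombospondin-type repeats that hold them in the matrix, where some cut proteoglycans such as versican and aggrecan, and others trim procollagens or shape fibrillin microfibrils. Mmp proteins degrade collagens, gelatins and other matrix proteins, and in brain vessels they are studied for turnover of the basement membrane and opening of the blood-brain barrier.

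The mice differed in Sox17, a transcription factor of endothelial cells. Sox17iECKO mice were Sox17flox/flox and carried Cdh5(PAC)-Cre-ERT2, a recombinase that is made in endothelial cells and becomes active with tamoxifen, and wt mice were Sox17flox/flox without it. Both genotypes received tamoxifen. Dams were injected 2 times with 1 mg at 11.5 and 13.5 days post coitum for embryos of stage E15.5, pups received 100 µg under the skin at postnatal day 1 for postnatal days 5 and 9 (P5 and P9), and adults of 6 weeks received 4 injections of 1.5 mg and were used 1 week after the last. After dissociation of the brain, CD45-positive cells were removed and CD31-positive cells captured. Each genotype had 3 libraries at each of 4 stages, which the labels call independent biological replicates. The kit used to dissociate the brain was the same for E15.5 and P5 and a different one for P9 and adults. Differences between P5 and P9, which shared a tamoxifen schedule, cannot be told apart from those of kit. Those between E15.5 and P5, and between P9 and adults, cannot be told apart from those of tamoxifen schedule. Between E15.5 and adults both kit and schedule differed.

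The 24 libraries held 12301779 to 19830600 counts, so that 3 counts, the limit that a count of 0 allows, correspond to 0.151 to 0.244 CPM, which is the count scaled to a common library size. Sox17 averaged 9.13 CPM in Sox17iECKO and 90.5 CPM in wt fractions at E15.5, 16.7 and 277 CPM at P5, 23.4 and 333 CPM at P9, and 52.7 and 297 CPM in adults, so that the RNA followed the labels at every stage. Markers of endothelium were present in all libraries, beside markers of neurons, astrocytes, oligodendrocytes, pericytes, fibroblasts, and choroid plexus and ependyma. Summed over 8 endothelial markers, wt fractions held 3866 to 4527 CPM at E15.5 and 13355 to 14792 CPM at P5. In such bulk samples, fewer cells of a type and less RNA per cell cannot be told apart. The E15.5 libraries numbered 3 of both genotypes stood apart, with summed pericyte markers of 738 CPM in Sox17iECKO and 645 CPM in wt, against at least 1359 CPM in the other E15.5 libraries.

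Levels were compared between genes on the authors' TPM, which corrects for gene length. At P9, the most abundant member in both genotypes was Adam10, the principal sheddase of Notch receptors and cadherins, with 246 TPM in Sox17iECKO and 298.5 TPM in wt. In Sox17iECKO it was followed by Adamts10, a fibrillin-associated protease, with 213 TPM, and by Mmp15, a membrane-type matrix metalloprotease, with 160 TPM. In wt it was followed by Mmp15 with 247 TPM and by Adam15, an endothelial disintegrin-type protease, with 187 TPM. The leading member changed with stage: in wt it was Mmp9, a gelatinase of basement membrane collagen, at E15.5 (483 ± 236 TPM), Adam10 at P5 (275 TPM) and P9, and Adam15 in adults (297 TPM). The Mmp9 level at E15.5 was uneven, since 1 of 3 libraries in each genotype, the library numbered 3, held less than the others.

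Summed over all 46 members, TPM at P9 came to 1443 ± 105 in Sox17iECKO and 1702 ± 33.8 in wt (SD, n = 3 each). These sums do not carry the normalization factors used in the tests, where a lower factor raises the scaled level. At P9 the factors were 0.861 to 0.928 in Sox17iECKO and 0.954 to 0.969 in wt, so the sums are a description and were not tested. The 8 active membrane Adam proteases summed to 461 ± 15.4 TPM in Sox17iECKO and 608 ± 10.1 TPM in wt at P9. The 7 membrane-bound Mmp members summed to 369.6 ± 32 TPM in Sox17iECKO and 492 ± 22.2 TPM in wt. In both of these classes every Sox17iECKO library lay below every wt library at P9. The same held for the 5 secreted Mmp members, with 128 ± 9.27 TPM in Sox17iECKO and 166 ± 9.84 TPM in wt. The opposite order held for the 8 Adamts members outside the proteoglycan-cleaving and procollagen classes, with 240.8 ± 31.55 TPM in Sox17iECKO and 193.8 ± 3.95 TPM in wt. Most of this sum was Adamts10, with 212.6 TPM in Sox17iECKO and 149.3 TPM in wt, while Adamts12, Adamts16 and Adamts17 of the class were lower in Sox17iECKO. The opposite order also held for the 3 inactive Adam proteins of neural adhesion, with 41.7 ± 20 TPM in Sox17iECKO and 19.3 ± 2.46 TPM in wt. Most of that sum was Adam11, with 33.9 TPM in Sox17iECKO and 13.1 TPM in wt. In the sum of the inactive class, 1 Sox17iECKO library at 64.7 TPM accounted for much of the spread. The 7 proteoglycan-cleaving Adamts members summed to 193 ± 11.6 TPM in Sox17iECKO and 211.9 ± 10.7 TPM in wt, with overlapping libraries.

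**Figure D1:**
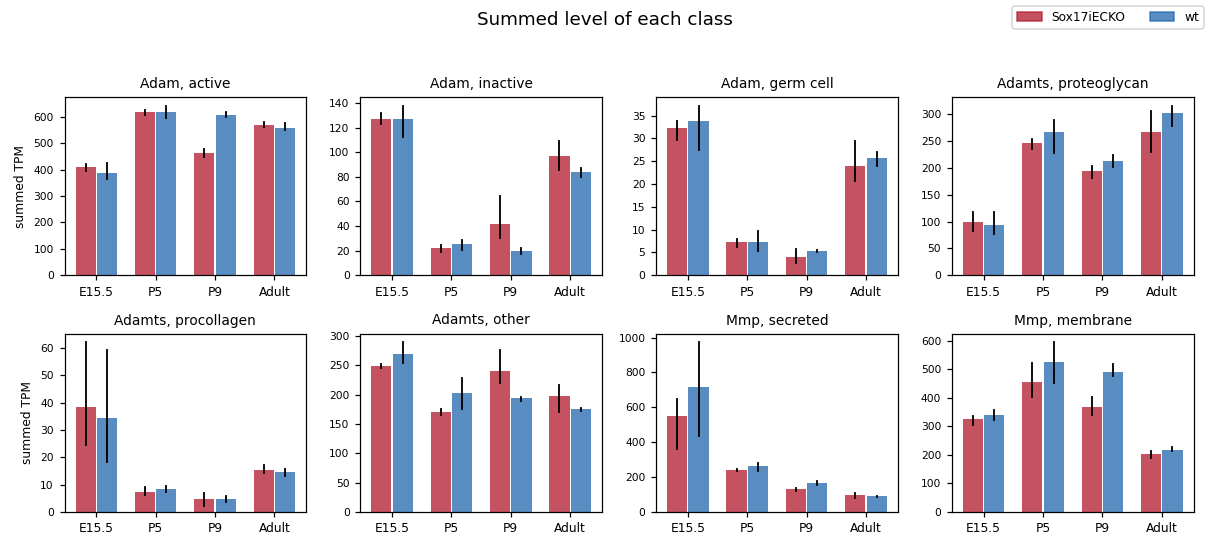
Summed TPM of each class of metalloprotease by stage, with Sox17iECKO left of wt; bars are means of 3 libraries and black lines run from the lowest to the highest library. At P9 the active membrane Adam class reached 461 TPM in Sox17iECKO and 608 TPM in wt, and at E15.5 the secreted Mmp class had the widest range.

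At P9, RNA of 12 members was lower and RNA of 3 members higher in Sox17iECKO than in wt fractions. Counts were compared with edgeR's quasi-likelihood test, fitted across all genes and adjusted by Benjamini and Hochberg, and a gene is called where its adjusted p is under 0.05. The 15 members called make 32.6% of the 46, while 28% of all genes tested were called, 13.5% higher and 14.6% lower. The median log2 fold change was -0.17 over the members and 0.02 over all genes. In 15 members every Sox17iECKO library lay below every wt library, 32.6% against 21.7% of all genes, and in 4 members every one lay above, 8.7% against 19%. Taken in either direction, the share of members called was close to that of all genes. By direction the members leaned to lower, with 12 of the 15 calls lower and 3 higher, while calls over all genes were nearly even.

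**Figure D2:**
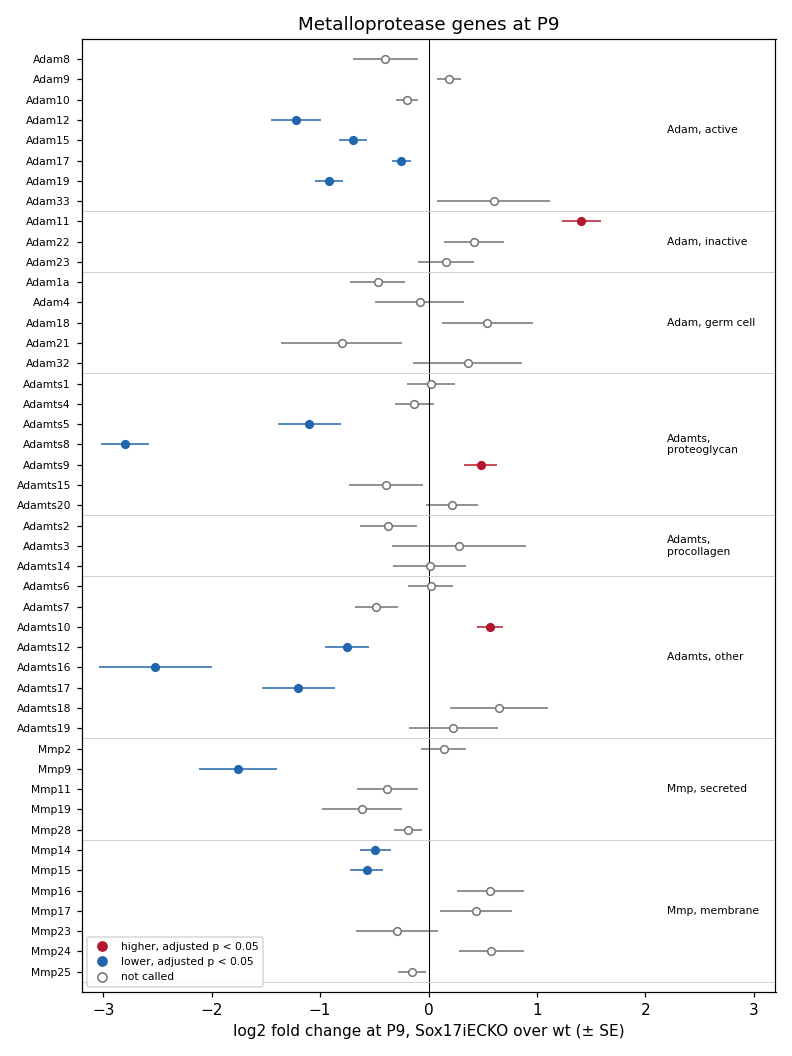
Log2 fold change of Sox17iECKO over wt at P9 for the 46 members by class, with standard errors from edgeR; filled points are called. Adamts8 at -2.80 and Adamts16 at -2.52 lie lowest, and Adam11 at 1.41 lies highest.

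Among the 7 proteoglycan-cleaving Adamts members, 2 fell, 1 rose and 4 were not called at P9. Adamts8, an aggrecanase described as anti-angiogenic (mm10 chromosome 9, 30942562 to 30963838, plus strand), had 4.04, 2.67 and 3.68 CPM in Sox17iECKO, against 27, 23.3 and 23.6 CPM in wt. The wt libraries lay close together and far above all 3 Sox17iECKO libraries. Its log2 fold change was -2.80 ± 0.22 (SE; edgeR adjusted p = 1.3e-09), and its mean in Sox17iECKO was 14.1% of that in wt. Adamts5, the main aggrecanase of cartilage, had 4.12, 2.49 and 3.57 CPM in Sox17iECKO and 7.72, 5.66 and 8.78 CPM in wt, a change of -1.10 ± 0.29 (edgeR adjusted p = 0.0056) at low levels. Adamts9, a versican-cleaving protease, had 106, 99.7 and 75.2 CPM in Sox17iECKO and 65.2, 63.4 and 73.3 CPM in wt, a change of 0.48 ± 0.15 (edgeR adjusted p = 0.022). The groups of Adamts9 were separated by a small gap, and its call was lost in 4 of 6 fits that left out a P9 library: adjusted p was 0.073 without wt 1, 0.081 without wt 2, 0.11 without Sox17iECKO 1 and 0.067 without Sox17iECKO 2. It was also lost after scaling to endothelial identity genes (0.26, adjusted p = 0.21). Adamts1, the member of the class with the highest TPM at P9, had 239, 236 and 215 CPM in Sox17iECKO and 256, 216 and 206 CPM in wt, and the groups overlapped. Adamts4, an aggrecanase of oligodendrocytes and cartilage, had a log2 fold change of -0.13 (edgeR adjusted p = 0.64), Adamts15 one of -0.39 (adjusted p = 0.42) and Adamts20 one of 0.22 (adjusted p = 0.54).

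Of the 8 Adamts members outside the proteoglycan-cleaving and procollagen classes, 3 fell, 1 rose and 4 were not called at P9. Adamts16 (mm10 chromosome 13, 70727802 to 70841811, minus strand), a fibronectin-cleaving protease, had 1.01, 0.304 and 3.68 CPM in Sox17iECKO, against 8.9, 9.96 and 12.5 CPM in wt. All Sox17iECKO libraries lay below wt, but they spread over more than a 10-fold range close to the detection limit. The change was -2.52 ± 0.52 (edgeR adjusted p = 0.0007). Adamts17, a relative of Adamts10 linked to fibrillin, had 3.03, 2.55 and 5.47 CPM in Sox17iECKO and 9.62, 8.21 and 8.28 CPM in wt, a change of -1.20 ± 0.34 (adjusted p = 0.011). Adamts12, which cleaves cartilage oligomeric matrix protein, had 26.3, 20.7 and 25.3 CPM in Sox17iECKO and 39.1, 38.1 and 44.2 CPM in wt, a change of -0.75 ± 0.20 (adjusted p = 0.0059). Neither gene's groups overlapped. Adamts10 (mm10 chromosome 17, 33524204 to 33553782, plus strand) went the other way, with 360, 379 and 389 CPM in Sox17iECKO and 252, 266 and 241 CPM in wt. Its change was 0.57 ± 0.12 (edgeR adjusted p = 0.00075), with tight and separate groups. Adamts7, Adamts6, Adamts18 and Adamts19 had log2 fold changes of -0.48, 0.02, 0.65 and 0.23 and were not called.

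None of the 3 procollagen N-proteinases, which trim the amino ends of fibrillar collagens, was called at P9 by edgeR, by an unadjusted p under 0.05 or by DESeq2. Adamts2, Adamts3 and Adamts14 had log2 fold changes of -0.37, 0.28 and 0.01, at group means of 1.97 to 4.47 CPM in both genotypes, where the counts allow only coarse comparisons.

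Of the 8 active membrane Adam proteases, 4 fell and none rose at P9. Adam15 (mm10 chromosome 3, 89338542 to 89349996, minus strand) had 232, 214 and 213 CPM in Sox17iECKO and 350, 360 and 360 CPM in wt. Its groups were tight and well apart, with a log2 fold change of -0.70 ± 0.13 (edgeR adjusted p = 0.00016). Adam19 (mm10 chromosome 11, 46055992 to 46147343, plus strand), a sheddase of neuregulins needed for heart valve formation, had 17.1, 16.9 and 26.3 CPM in Sox17iECKO and 39.4, 39.3 and 36.5 CPM in wt. Its change was -0.92 ± 0.13 (edgeR adjusted p = 8.4e-06). Adam12, a sheddase known from muscle and placenta (mm10 chromosome 7, 133883199 to 134232146, minus strand), had 3.37, 3.34 and 5.47 CPM in Sox17iECKO and 9.94, 8.89 and 10.2 CPM in wt. For Adam12 the change was -1.22 ± 0.23 (edgeR adjusted p = 0.0003). In both Adam19 and Adam12 the third Sox17iECKO library was the highest of its group and still below all wt libraries. On its own strand Adam12 overlaps A130023I24Rik and Gm23631, and Adam19 overlaps the microRNA gene Mir8100. Some counts of Adam12 and Adam19 may belong to these.

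Adam17, the sheddase that releases tumour necrosis factor, had 105, 100 and 111 CPM in Sox17iECKO and 123, 123 and 131 CPM in wt at P9. The difference was small, at -0.25 ± 0.09 (edgeR adjusted p = 0.032). Its call was lost in 5 of 6 fits that left out a P9 library: adjusted p was 0.059 without wt 1, 0.058 without wt 2, 0.11 without wt 3, 0.06 without Sox17iECKO 1 and 0.086 without Sox17iECKO 2. DESeq2 did not call it either (adjusted p = 0.092). Adam10 had 418, 436 and 332 CPM in Sox17iECKO and 463, 457 and 447 CPM in wt. Every Sox17iECKO library was lower, but the difference of -0.20 ± 0.10 was not called (edgeR adjusted p = 0.14), and it was called after scaling to endothelial identity genes (-0.42, adjusted p = 0.0053). Adam9, Adam8 and Adam33 were not called, at 0.19, -0.40 and 0.60.

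Adam11, Adam22 and Adam23 lack a working catalytic site and bind synaptic proteins such as Lgi1 in neurons. Adam11 (mm10 chromosome 11, 102761439 to 102780262, plus strand) had 46.7, 52.1 and 85.7 CPM in Sox17iECKO and 22, 26.8 and 20.7 CPM in wt at P9. All Sox17iECKO libraries lay above all wt libraries, the third the most, and the change was 1.41 ± 0.18 (edgeR adjusted p = 3.6e-06). Adam11 was called in each of the 6 fits that left out a P9 library. Adam22 had 17.8, 13.4 and 46.7 CPM in Sox17iECKO and 16.5, 22 and 20.1 CPM in wt, and was not called. Adam23 had 7.66, 6.56 and 19.5 CPM in Sox17iECKO and 8.44, 11.9 and 10 CPM in wt, and was not called. In both, only the third Sox17iECKO library was high. That library also held the largest sum of 6 neuronal markers, which came to 235, 173 and 367 CPM in Sox17iECKO and 194, 203 and 224 CPM in wt, with 0 of 6 markers called and none at 0. The part of neuronal RNA in these values was not tested.

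Among the 5 secreted Mmp members, 1 fell at P9. Mmp9 (mm10 chromosome 2, 164940780 to 164955850, plus strand) had 3.53, 8.75 and 7.25 CPM in Sox17iECKO and 28.7, 16.7 and 23.4 CPM in wt. Its groups did not overlap, and the change was -1.76 ± 0.36 (edgeR adjusted p = 0.0006). Neutrophils, which store Mmp9, were depleted with CD45, and the sum of their markers was 24.8 to 315 CPM in Sox17iECKO and 10.1 to 13 CPM in wt. Of 6 markers tested 1 was higher, their median log2 fold change was -0.04, and Elane was at 0. The part of neutrophil RNA in the Mmp9 values was not tested. Mmp2, the gelatinase of mesenchymal cells, had 7.91, 12.1 and 14.5 CPM in Sox17iECKO and 12.2, 7.59 and 11.9 CPM in wt, which overlapped. Mmp28 (epilysin), Mmp11 (stromelysin-3) and Mmp19 had log2 fold changes of -0.19, -0.38 and -0.61 and were not called.

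Of the 7 membrane-bound Mmp members, 2 fell at P9. Mmp15 had 223, 215 and 236 CPM in Sox17iECKO and 337, 329 and 336 CPM in wt, a change of -0.57 ± 0.15 (edgeR adjusted p = 0.0073). Mmp14, the membrane collagenase that activates proMmp2, had 73.3, 75.4 and 57.2 CPM in Sox17iECKO and 105, 90.5 and 94.3 CPM in wt, a change of -0.49 ± 0.14 (edgeR adjusted p = 0.0083). Both showed separate groups. Mmp25, which is anchored by a lipid, had 146, 154 and 122 CPM in Sox17iECKO and 150, 155 and 163 CPM in wt and was not called. Mmp24, known from neurons, had 27.6, 19.1 and 67.7 CPM in Sox17iECKO and 19.4, 22.6 and 34.6 CPM in wt, again with the third Sox17iECKO library highest. Mmp16, Mmp17 and Mmp23 were not called, at 0.57, 0.44 and -0.29.

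The 5 Adam genes known mainly from germ cells, Adam1a, Adam4, Adam18, Adam21 and Adam32, were not called at P9, and Adam1a, Adam4 and Adam32 had log2 fold changes of -0.47, -0.08 and 0.36. Adam18 had 4 counts in Sox17iECKO and 1 in wt, a ratio of 4.11 with a 95% counting interval of 0.407 to 202. Adam21 had 2 counts in Sox17iECKO and 8 in wt, a ratio of 0.257 with a 95% counting interval of 0.0266 to 1.29. Adam1a, at 3.39 CPM in Sox17iECKO and 4.78 CPM in wt on average, was the only one above 1 CPM at P9. Adam1a overlaps Mapkapk5 and Adam4 overlaps Cox16 on the same strand.

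**Figure D3:**
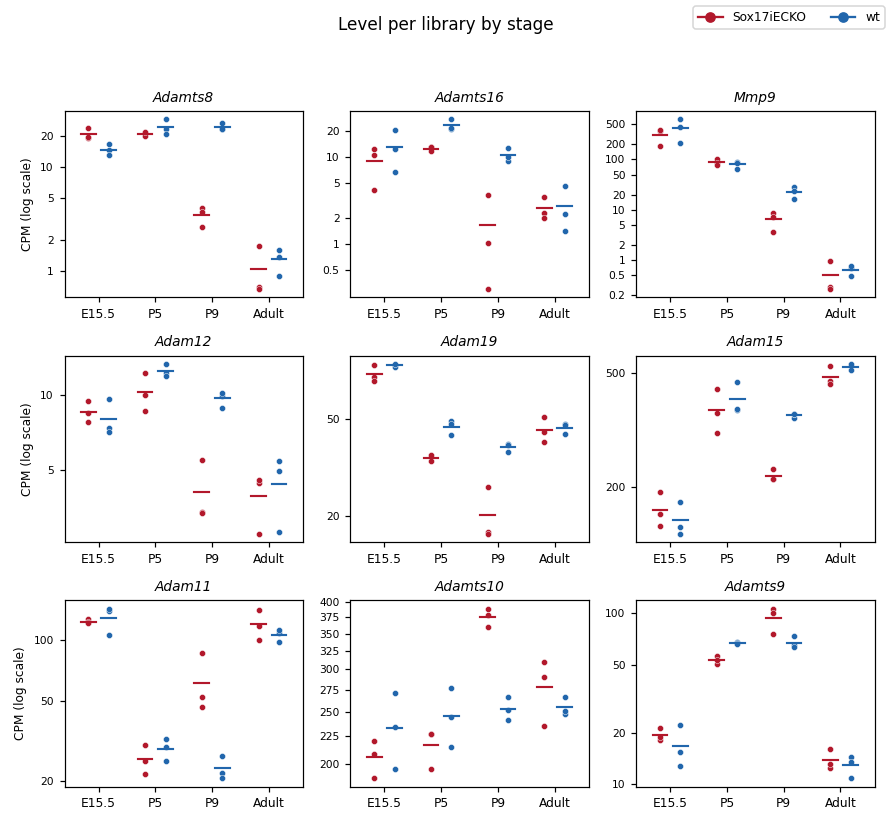
CPM of 9 members in every library by stage on a log axis, Sox17iECKO left of wt; each point is 1 library and each bar the mean of 3. At P9, Adamts8 lies at 2.67 to 4.04 CPM in Sox17iECKO and 23.3 to 27 CPM in wt, while in adults it lies at 0.67 to 1.73 CPM and 0.89 to 1.6 CPM.

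Markers of mural and connective tissue cells moved with genotype at P9. The sum of 7 pericyte markers was 707, 1743 and 1706 CPM in Sox17iECKO and 3723, 2705 and 3365 CPM in wt, with 4 of 7 lower. Fibroblast markers summed to 197, 228 and 284 CPM in Sox17iECKO and 440, 333 and 377 CPM in wt, with 5 of 6 lower and 1 higher. Smooth muscle markers summed to 11.7 to 23.4 CPM in Sox17iECKO and 38.5 to 47.3 CPM in wt, with 3 of 5 tested lower. Astrocyte markers ran the other way, at 597 to 870 CPM in Sox17iECKO and 335 to 418 CPM in wt, with 4 of 6 higher. Endothelial markers summed to 15035 to 18484 CPM in Sox17iECKO and 14259 to 14698 CPM in wt, with 2 of 8 higher and 2 lower. None of the markers in these lists was at 0. Of the members that mural cells and fibroblasts also make, Adamts5, Adamts12, Adam12, Adam19 and Mmp14 fell in the same libraries. Mmp2, the gelatinase of mesenchymal cells, was not called (edgeR adjusted p = 0.66), nor were the procollagen N-proteinases. The part of mural cells and fibroblasts in the values was not tested.

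Promoter sequences from RefSeq (GRCm38.p6) covered 25 of the 46 members, in windows of the 250 bases before the annotated start. For each member 1 window was taken, the nearest to its gene start, and set against all 32851 windows. The start used lay 61068 bases from the gene start in Adamts20, 376 in Adam1a and 224 in Adamts18, and these windows are included in the shares. The windows of Adam15 (chr3:89350029-89350278, minus strand) and Adam19 (chr11:46055734-46055983, plus strand) are shown as examples of genes that fell at P9 and whose windows held a motif. Their starts lie 32 and 8 bases from the gene starts in the deposited tables. Capitals mark an ETS core (CCGGAA) in Adam15 and an AP-1 site (TGANTCA) in Adam19, found on either strand.
Adam15: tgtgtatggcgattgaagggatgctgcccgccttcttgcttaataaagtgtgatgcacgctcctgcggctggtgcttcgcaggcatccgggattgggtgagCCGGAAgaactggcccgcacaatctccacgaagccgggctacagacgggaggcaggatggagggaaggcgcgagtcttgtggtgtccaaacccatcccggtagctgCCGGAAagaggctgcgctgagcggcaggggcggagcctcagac
Adam19: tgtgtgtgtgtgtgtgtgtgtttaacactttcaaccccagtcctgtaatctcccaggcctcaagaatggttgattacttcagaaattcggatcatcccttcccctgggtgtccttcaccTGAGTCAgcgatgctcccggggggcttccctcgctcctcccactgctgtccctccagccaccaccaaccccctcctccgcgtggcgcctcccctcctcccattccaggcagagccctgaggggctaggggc
The Adam15 window held the ETS core 2 times, and 3 of 25 member windows held it (12%: Adam15, Adam17 and Adamts14), as did 12% of all 32851 windows. The AP-1 site lay in 1 of 25 member windows, at -131 in Adam19, and in 6.75% of all windows. A SOX core (AACAAT, either strand) lay in 1 member window, that of Mmp25, and in 9.42% of all windows, and a TATA box (TATAAA, the gene's own strand) lay in 1, that of Adamts1, and in 7.59% of all. No motif overlapped another in the member windows. The median GC content was 65.2% over member windows and 52.4% over all windows. These are letter matches, and no binding was measured.

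At E15.5 none of the 46 members was called between genotypes by edgeR, and 0.548% of all genes were. DESeq2 called 0 members, and 1 had an unadjusted p under 0.05. That member was Adamts8, with 23.7, 19.1 and 19.4 CPM in Sox17iECKO and 14.7, 16.7 and 13 CPM in wt, a log2 fold change of 0.48 ± 0.19 (edgeR adjusted p = 0.71). Every Sox17iECKO library of this stage lay above wt, the opposite order to P9. Mmp9 had 365, 378 and 181 CPM in Sox17iECKO and 450, 624 and 209 CPM in wt at E15.5, where the lowest library of each genotype was the one numbered 3.

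At P5 none of the 46 members was called by edgeR or DESeq2, 7 had an unadjusted p under 0.05, and 0.53% of all genes were called. The median log2 fold change was -0.18 over the members and 0.00 over all genes. In 8 members (17.4%) every Sox17iECKO library lay below every wt library, against 7.23% of all genes, and in none did every one lie above, against 7.8% of all genes. Those 8 were Adam19, Adamts9, Adamts15, Adamts16, Adamts17, Mmp14, Mmp16 and Mmp24. Adam19 had 35.1, 33.5 and 35.7 CPM in Sox17iECKO and 49, 47.7 and 43.2 CPM in wt (-0.42 ± 0.13, edgeR adjusted p = 0.21). Adamts16 had 12.8, 12.9 and 11.6 CPM in Sox17iECKO and 20.8, 26.9 and 21.3 CPM in wt (-0.88 ± 0.44, edgeR adjusted p = 0.66). Adamts8 had 21.2, 20 and 21.7 CPM in Sox17iECKO and 23.3, 29 and 21.1 CPM in wt at P5, with overlap. Mmp9 had 102, 85.3 and 77.4 CPM in Sox17iECKO and 87.8, 85.9 and 65 CPM in wt, also with overlap.

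In adults none of the 46 members was called by edgeR or DESeq2, none had an unadjusted p under 0.05, and 0.0874% of all genes were called. In 3 members every Sox17iECKO library lay above wt (Adam17, Adam22 and Adam32) and in 3 every one lay below (Adamts1, Adamts14 and Mmp15), against 5.09% and 5.79% of all genes. Adam15, at 528, 469 and 458 CPM in Sox17iECKO and 528, 514 and 537 CPM in wt, was the most abundant in TPM in both genotypes. Adamts8 was near the detection limit in both genotypes, with 0.693, 0.67 and 1.73 CPM in Sox17iECKO and 1.37, 0.89 and 1.6 CPM in wt.

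Whether the effect of genotype differed between stages was tested directly. An F test over the 4 stages called 7 members, 15.2% of the 46, against 13.5% of all genes. These were Adamts8 (edgeR adjusted p = 1.7e-07), Adam11 (0.0003), Adam19 (0.0036), Adamts10 (0.0056), Adam15 (0.011), Adam12 (0.027) and Mmp9 (0.039). The calls of Mmp9 and Adam12 depended on single libraries, with adjusted p of 0.0076 to 0.13 and 0.0059 to 0.087 when each of 24 libraries was left out in turn, and they were made in 14 and 20 of those fits. The Mmp9 call was also lost with the DESeq2 test (0.0596), and that of Adamts10 with endothelial identity scaling (0.0595). For Adamts8 the log2 effect at P9 was lower by 3.28 than at E15.5 (edgeR adjusted p = 4.4e-08), by 2.57 than at P5 and by 2.46 than in adults. Adult effects of Adamts8 and Mmp9 rest on few counts, so that they are coarse. Adamts8 had adult group means of 14.7 counts in Sox17iECKO and 18 in wt, and Mmp9 had 7 and 9.

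Set against E15.5, the effect at P9 differed in 8 members, 2 higher and 6 lower, while 15.8% of all genes differed, 7.13% higher and 8.65% lower. Adam11 differed by 1.47 and Adamts10 by 0.75, and Adamts16, Adam12, Adam15, Adam19 and Adam17 by -1.97, -1.31, -0.82, -0.80 and -0.37. Adamts16 and Adam17 were each called in 3 of 12 fits that left out a library, with adjusted p of up to 0.13 and 0.14. Set against P5, it differed in 8 members, 4 higher and 4 lower, while 15.7% of all genes differed, 7.27% higher and 8.44% lower. The split was 3 higher and 7 lower with endothelial identity scaling, which moved the median of all genes to -0.14, and 5 higher and 2 lower with DESeq2 size factors. Adam11, Mmp16, Adamts9 and Adamts10 were higher by 1.58, 1.37, 0.81 and 0.75, and Mmp9, Adam12 and Adam15 differed by -1.91, -0.94 and -0.57. In 12 fits that left out a library, Adam12 was called in 2, Mmp16 in 4 and Adam15 in 7, and the number of members called was 5 without P5 wt 1, P5 wt 3 or P9 wt 2. Set against adults, it differed in 10 members, 1 higher and 9 lower, while 13.2% of all genes differed, 6.5% higher and 6.72% lower. With DESeq2 size factors it was 2 higher and 5 lower, and with endothelial identity scaling, at a median over all genes of -0.21, it was 1 higher and 12 lower. Adam11 was higher by 1.23, and Adamts16, Adamts17, Adamts5, Adamts12, Adam12, Adam19, Adam15 and Adam17 differed by -2.46, -1.85, -1.32, -1.26, -1.04, -0.90, -0.58 and -0.42. The value of Adamts17 draws on adult group means of 17.7 counts in Sox17iECKO and 9.67 in wt. In 12 fits that left out a library, Adamts17 was called in 3, Adam12 in 4, Adamts5 in 5, Adamts16 in 6, Adam15 in 7, and Adamts12 and Adam17 in 9 each. The number of members called was 4 without P9 wt 3, 5 without adult wt 2, and 6 without P9 Sox17iECKO 2, adult Sox17iECKO 2 or adult wt 3. The 3 comparisons share the P9 libraries.

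The genes that inhibit these proteases were read from a list of 7, of which 6 reached the count minimum, and 3 rose and none fell at P9. Timp3, the matrix-bound inhibitor of Adam10, Adam17, several Adamts enzymes and Mmps, had 661, 728 and 575 CPM in Sox17iECKO and 57.8, 51.2 and 64.6 CPM in wt. Its change was 3.50 ± 0.12 (edgeR adjusted p = 3.8e-15), and no member changed as much at P9. Timp4, an inhibitor known from heart and brain, had 29.4, 24.1 and 14.2 CPM in Sox17iECKO and 5.3, 6.57 and 5.21 CPM in wt, a change of 1.95 ± 0.26 (edgeR adjusted p = 5.2e-06). A2m, the gene of alpha-2-macroglobulin, which traps proteases of many kinds, had 32.1, 27.3 and 17.3 CPM in Sox17iECKO and 10.3, 12.3 and 16.6 CPM in wt. The groups of A2m were separated by less than 1 CPM, and the change was 0.95 ± 0.29 (edgeR adjusted p = 0.017). Timp1, Timp2 and the membrane-bound inhibitor Reck had -0.49, -0.10 and 0.00 at P9 and were not called (Timp1 adjusted p = 0.16, or 0.046 at -0.70 with endothelial identity scaling). The median over the 6 was 0.48, against 0.02 over all genes, of which 28% were called at P9 and 13.5% were called higher. Astrocyte markers, which rose in the same libraries, have their values above, and their part in the rise of Timp4 and Timp3 was not tested.

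Timp3 also rose at the earlier stages. At E15.5 it had 59.4, 50.4 and 55.4 CPM in Sox17iECKO and 33.2, 37.5 and 29.9 CPM in wt (0.71 ± 0.12, edgeR adjusted p = 0.0016). At P5 it had 106, 105 and 123 CPM in Sox17iECKO and 65.6, 82.6 and 80 CPM in wt (0.55 ± 0.11, edgeR adjusted p = 0.02). The groups did not overlap at either stage. At E15.5 red cell markers summed to 524, 649 and 820 CPM in Sox17iECKO and 2645, 3453 and 2567 CPM in wt, with 5 of 5 lower and a median of -2.21, and their part in the E15.5 value was not tested. The E15.5 call was lost in a fit of its 6 libraries alone (adjusted p = 0.13) and without both libraries numbered 3 (0.053). The P5 call held in 2 of 6 fits that left out a P5 library, with adjusted p of 0.028 to 0.21, and was lost with endothelial identity scaling (0.52, adjusted p = 0.071). In adults Timp3 had 377, 375 and 406 CPM in Sox17iECKO and 351, 342 and 342 CPM in wt, a change of 0.16 that was not called.

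**Figure D4:**
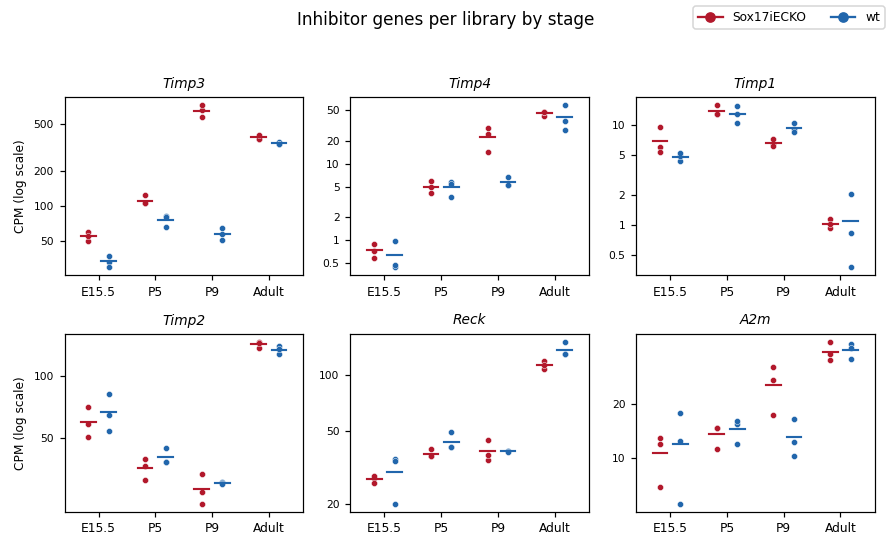
CPM of 6 protease inhibitors in every library by stage on a log axis, Sox17iECKO left of wt; each point is 1 library and each bar the mean of 3. Timp3 at P9 lies at 575 to 728 CPM in Sox17iECKO and 51.2 to 64.6 CPM in wt.

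Adamts-like proteins share the non-catalytic domains of Adamts enzymes, have no protease domain, and bind fibrillin and matrix-stored growth factors. Of 8 listed with papilin, 7 were tested, and at P9 2 rose and 4 fell, with a median of -0.83. Over all genes tested 28% were called, 13.5% higher and 14.6% lower, and the median was 0.02. Adamtsl2, mutated in human geleophysic dysplasia, had 165, 138 and 173 CPM in Sox17iECKO and 743, 743 and 727 CPM in wt. Its change was -2.22 ± 0.14 (edgeR adjusted p = 4.1e-11), with groups far apart. Papln, the gene of papilin, had 9.25, 9.35 and 10.1 CPM in Sox17iECKO and 16.5, 19.5 and 17.3 CPM in wt (-0.88, edgeR adjusted p = 0.00053). Adamtsl4, known for its role in the fibres that hold the lens, had 10.2, 14.5 and 8.35 CPM in Sox17iECKO and 3.66, 5.21 and 3.36 CPM in wt (1.39 ± 0.27, edgeR adjusted p = 0.00034). Adamtsl3 also rose (0.86, adjusted p = 0.018), although its groups overlapped, and Adamtsl1 and Adamtsl5 fell (-0.83, adjusted p = 0.0074; -1.21, adjusted p = 0.025). At P5 Adamtsl1 was the only one called, with 2.52, 2.98 and 3.32 CPM in Sox17iECKO and 6.92, 4.96 and 6 CPM in wt (-0.98 ± 0.21, edgeR adjusted p = 0.03).

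Most members were called between stages in wt, except between P9 and P5. From E15.5 over P5 and P9 to adults, Mmp9 averaged 428, 79.5, 22.9 and 0.642 CPM in wt, Adamts4 averaged 18.1, 35, 50.1 and 239 CPM, and Adamts8 averaged 14.8, 24.5, 24.6 and 1.28 CPM. Comparing P5 with E15.5, 36 of 46 members were called, 14 higher and 22 lower, while 66.6% of all genes were called, 36.2% higher and 30.4% lower. Comparing P9 with P5, 3 were called, all lower, while 5.12% of all genes were, 2.45% lower. That number depended on the fit: fewer were called when a library was left out. More were called in a fit of the 6 libraries alone, without a low-count filter or by DESeq2, as given below. Comparing adult with P9, 29 were called, 12 higher and 17 lower, against 61.1% of all genes, 30.9% higher and 30.3% lower. Comparing adult with E15.5, 37 were called, 11 higher and 26 lower, against 69.6% of all genes, 35.2% higher and 34.3% lower. The members counted as higher in both adult comparisons include Adam18, which reached the count minimum only through the adult groups. Its call draws on the groups that let it pass, and nothing is read from it. The sum of endothelial markers differed between stages, as given above, and scaling to endothelial identity genes moved the median of all genes to -1.47, 0.57 and -1.12 in the P5 with E15.5, adult with P9 and adult with E15.5 comparisons. The splits then became 3 higher and 37 lower, 19 higher and 12 lower, and 4 higher and 36 lower.

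In wt at P5 against E15.5, the largest rises were in Adamts1 (2.45 on the log2 scale), Adamts12 (2.15), Adamts9 (1.99), Mmp25 (1.77) and Mmp15 (1.71). With endothelial identity scaling the calls of Mmp25 (adjusted p = 0.23) and Mmp15 (adjusted p = 0.68) were lost. Adam15, Adam17, Adam10, Adam9 and Adamts4 rose by 1.39, 1.18, 1.17, 0.99 and 0.94, and all 5 were lower with endothelial identity scaling, at -0.23, -0.43, -0.45, -0.63 and -0.66. The largest falls were in Mmp23 (-2.78), Adam8 (-2.72), Mmp17 (-2.65), Adamts3 (-2.50), Mmp9 (-2.43), Adamts18 (-2.41), Adam11 (-2.14), Adam1a (-2.00), Adam23 (-1.96) and Mmp11 (-1.74). All 3 inactive neural Adam proteins fell at this step. Neuronal markers summed to 179 to 285 CPM at P5 and 1391 to 1720 CPM at E15.5 in wt, and their part in these falls was not tested.

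Between P5 and P9 in wt, Mmp9 fell by 1.79 (edgeR adjusted p = 0.0018), Adam8, a leukocyte sheddase, fell by 1.16 (adjusted p = 0.016) and Mmp16 fell by 1.11 (adjusted p = 0.039). When each of the 6 libraries was left out in turn, Adam8 was called in 2 fits and Mmp16 in 0. The number of members called was then 1 without P5 wt 1, P5 wt 3, P9 wt 1 or P9 wt 3.

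Comparing adult with P9 in wt, the largest rises were in Adam33 (3.30, over 15 counts at P9), Adamts2 (2.90), Adamts4 (2.25), Adamts20 (2.24), Adam1a (2.24), Adam11 (2.18), Mmp23 (2.10), Adam8 (2.07) and Adam22 (1.60). Adam18, which reached the count minimum only through the adult groups, had 45 counts in adult wt libraries and 1 count each at P9 and E15.5, and no ratio is drawn from it. Adamts4 had 236, 223 and 257 CPM in adult wt libraries and 42.8, 64.6 and 42.8 CPM at P9. Oligodendrocyte markers summed to 20269 to 24496 CPM in adult and 1015 to 1869 CPM in P9 wt libraries, and their part in the rise of Adamts4 was not tested. The largest falls were in Mmp9 (-4.91), Adamts12 (-4.70), Adamts8 (-4.14), Adamts17 (-3.43), Mmp25 (-2.73), Adamts9 (-2.37), Adamts16 (-1.91), Mmp14 (-1.44), Adam10 (-1.33) and Adamts7 (-1.24). Pericyte markers summed to 474 to 585 CPM in adult and 2705 to 3723 CPM in P9 wt libraries. For fibroblast markers the sums were 61.5 to 72.3 and 333 to 440 CPM, and for choroid plexus and ependyma 5503 to 6338 and 1696 to 2543 CPM. The part of these cells in the rises and falls was not tested.

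Over the whole span from E15.5 to adult, wt levels fell most in Mmp9 (-9.12, to 27 counts in the 3 adult libraries), Adamts17 (-4.71), Adamts3 (-4.63), Adamts18 (-4.28), Adamts7 (-3.41), Adamts8 (-3.40), Mmp17 (-2.67), Mmp16 (-2.49), Adamts12 (-2.41) and Mmp11 (-2.33). They rose most in Adamts4 (3.71), Adamts2 (2.78), Adam15 (1.77), Adamts1 (1.49), Adam33 (1.19) and Mmp19 (1.13). The calls of Adamts1 (adjusted p = 0.14), Adam33 (0.84) and Mmp19 (0.82) were lost with endothelial identity scaling. That of Adam33 was also lost without E15.5 wt 3 (0.095), adult wt 2 (0.084) or both E15.5 libraries numbered 3 (0.066), and that of Mmp19 without adult wt 2 (0.11). Adam9, Adam17 and Adamts20 rose by 0.98, 0.95 and 0.81, and were lower with endothelial identity scaling, at -0.16, -0.18 and -0.34. In wt, neuronal markers summed to 1391 to 1720 CPM at E15.5 and 299 to 373 CPM in adults. Oligodendrocyte markers summed to 37 to 54.5 CPM at E15.5 and 20269 to 24496 CPM in adults. The part of these cells in the changes over the span was not tested.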

How the data were processed

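Stranded libraries of polyadenylated RNA from 24 fractions were read on an Ion Proton sequencer, per the labels' protocols. The submitters' processing notes list build mm10 with STAR 2.5.3a, SAMtools 1.5, FastQC and Trim Galore 0.4.1, and the annotation release is not given in the sources used here. The deposited tables hold raw read counts per gene and strand, of which the forward-strand counts were tested. The deposited FPKM and TPM values follow from those counts and the gene length by recomputation. The authors' TPM was used for levels between genes and for class sums, without TMM factors, and FPKM was only checked.

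The 17159 genes that reached the minimum, a group mean of 10 counts, were normalized with TMM factors of 0.861 to 1.14 and fitted with edgeR 4.0.16 in R 4.3.3 (quasi-likelihood, 1 mean per group, 16 residual degrees of freedom, prior count 2). Two-sided p-values were adjusted over all genes tested by the Benjamini-Hochberg method, and called means an adjusted p under 0.05. SE is the log2 fold change divided by the square root of F. Replicates spread beyond counting error (chi-square per degree of freedom 5.28 to 63.6). Intervals and limits for counts of 0 cover counting error only. The pipeline was tested on simulated counts.

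Members, classes and lists were chosen with earlier results of these data known. The genes named were members called, up to 10 of the largest rises and falls per stage comparison, the inhibitors, and Adamts1, Adamts8, Mmp2, Mmp9, Mmp14, Adam10, Adam15 and Adam17; others were named after their values were seen. Alternatives were DESeq2 1.42.0 (size factors and test), scaling to endothelial identity genes, no low-count filter, fits of the 6 compared libraries, a replicate block, leaving out each library, and a fit without the 2 E15.5 libraries numbered 3.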

Additional observations from a re-analysis of the deposited data

Results flagged for a closer look

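The effect of Sox17iECKO differed between stages for 7 members by edgeR's interaction F test, whose adjusted p was 1.7e-07 for Adamts8, 0.0003 for Adam11, 0.0036 for Adam19, 0.0056 for Adamts10, 0.011 for Adam15, 0.027 for Adam12 and 0.039 for Mmp9. In Adamts8 the effect was 0.48 at E15.5, -0.22 at P5, -2.80 at P9 and -0.33 in adults on the log2 scale, and at P9 all 3 Sox17iECKO libraries lay below all 3 wt libraries. In Mmp9 it was -0.47, 0.15, -1.76 and -0.36 in the same order of stages. The adult values of both genes rest on few counts. Adult group means were 14.7 counts in Sox17iECKO and 18 in wt for Adamts8, and 7 and 9 for Mmp9. When each of 24 libraries was left out in turn, the test called Mmp9 in 14 fits and Adam12 in 20. The rule used here for a library far from the rest of its group needs at least 4 libraries and was not applied to groups of 3.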

How the results depend on the processing

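Between genotypes at P9, 13 of the 15 members called were called in every fit that left out a library, Adam17 and Adamts9 being the exceptions, and 14 were shared with the 18 called under endothelial identity scaling (2 higher, 16 lower). That scaling moved the median of all genes at P9 to -0.17. Without a low-count filter the number called was 1 at E15.5, 2 at P5, 13 for wt P9 against P5, 15 for the P9 effect minus the P5 effect and 16 by the interaction F test. In fits of the 6 libraries it was 1 at P5 and 15 for wt P9 against P5, where DESeq2 called 5. Without both E15.5 libraries numbered 3 the F test called 13. At E15.5, same-number libraries of the 2 genotypes correlated at 0.065, 0.368 and 0.486, and Sox17iECKO 2 and 3 correlated best with their own number. At the later stages the correlations were -0.0812 to 0.0912, and not every library correlated best with its own number. The main fit held no replicate block. With such a block 16 members were called at P9 and 11 by the F test. Leaving out each library gave 13 to 18 at P9, 33 to 36 for P5 against E15.5, 1 to 2 for P9 against P5, 28 to 29 for adult against P9, 34 to 36 for adult against E15.5, 6 to 12, 5 to 10 and 4 to 11 for the P9 effect against E15.5, P5 and adults, and 5 to 10 by the F test. The P9 against P5 difference fell to 5 without P5 wt 1, P5 wt 3 or P9 wt 2, and the P9 against adult difference to 4 without P9 wt 3, 5 without adult wt 2, and 6 without P9 Sox17iECKO 2, adult Sox17iECKO 2 or adult wt 3.

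Some values changed sign. With endothelial identity scaling, values that had been called higher turned lower in wt P5 against E15.5 for Adam15 (-0.23), Adam17 (-0.43), Adam10 (-0.45), Adam9 (-0.63) and Adamts4 (-0.66), and in wt adult against E15.5 for Adam9 (-0.16), Adam17 (-0.18) and Adamts20 (-0.34). Uncalled values that changed sign with it were Mmp2 (-0.05) and Mmp14 (-0.06) at E15.5, Timp4 at P5 (-0.03), and Adamts1 (-0.18) and Mmp2 (-0.06) at P9. With DESeq2 size factors and the DESeq2 test, Timp4 at P5 was 0.00 and Reck at P9 0.06. Without both E15.5 libraries numbered 3, Adamts1 was 0.18, Mmp2 -0.02, Mmp14 -0.06 and Timp4 0.00. Without a filter Reck at P9 was 0.00, in the fit of 6 libraries Adamts1 at P9 was 0.00, and with the block Adamts1 at E15.5 was 0.04 and Timp1 in adults 0.01. Leaving out libraries, the ranges were, at E15.5, -0.31 to 0.47 for Adamts1, -0.04 to 0.13 for Mmp14, -0.09 to 0.22 for Mmp2, -0.35 to 0.00 for Reck, -0.29 to 0.01 for Timp2 and 0.00 to 0.54 for Timp4; at P5, -0.03 to 0.24 for Timp1 and -0.16 to 0.14 for Timp4; at P9, -0.04 to 0.12 for Adamts1, -0.07 to 0.33 for Mmp2 and -0.12 to 0.06 for Reck; and in adults, -0.20 to 0.09 for Mmp14, -0.43 to 0.66 for Timp1 and -0.05 to 0.51 for Timp4. Of the sign changes listed, those of the wt stages were the only ones in called values. The causes were not tested.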

Other observations

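Proprotein convertases, which remove the inhibitory propeptide of many Adam, Adamts and membrane-bound Mmp enzymes, were higher in Sox17iECKO at P9 in 3 of 4 genes (median log2 fold change 0.42, 0.02 over all genes), while 13.5% of all genes tested were called higher and 28% either way. Furin had 196, 202 and 235 CPM in Sox17iECKO and 145, 146 and 143 CPM in wt (0.54, edgeR adjusted p = 4e-05). Pcsk6 rose by 0.83 (adjusted p = 0.0083) and Pcsk7 by 0.30 (adjusted p = 0.0098), and Pcsk5 was at -0.15. Of 8 partners that guide Adam10 and Adam17 to the surface, 2 rose and 2 fell, where 28% of all genes were called. Rhbdf2, a carrier of Adam17, had 100, 98.7 and 104 CPM in Sox17iECKO and 65.9, 59.9 and 60.8 CPM in wt (0.70, edgeR adjusted p = 4.1e-05), and Frmd8 rose by 0.34 (adjusted p = 0.027). Tspan15 and Tspan5, tetraspanins that bind Adam10, were at -0.37 (adjusted p = 0.012) and -0.29 (adjusted p = 0.023).

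Of 13 endothelial proteins that Adam enzymes shed, 2 rose and 2 fell at P9 (median 0.00), a share of 30.8% called against 28% of all genes. The adhesion molecule gene Icam1 had 281, 538 and 211 CPM in Sox17iECKO and 152, 155 and 145 CPM in wt (1.19, edgeR adjusted p = 0.00068), with the second Sox17iECKO library far above the others. That library also had the largest neutrophil marker sum, 315 CPM against 106 and 24.8 CPM in the other Sox17iECKO libraries, and its part was not tested. The chemokine gene Cx3cl1 rose by 0.42 (adjusted p = 0.044), and the receptor genes Kdr and Tek were at -0.44 (adjusted p = 0.003) and -0.33 (adjusted p = 0.042). Of 6 matrix and plasma substrates, Vwf, the gene of von Willebrand factor, had 2585, 2633 and 2739 CPM in Sox17iECKO and 1419, 1325 and 1586 CPM in wt (0.88, edgeR adjusted p = 6.6e-05), and Bcan, the gene of brevican, rose by 0.85 (adjusted p = 0.021). At E15.5 Vwf rose by 0.67 (adjusted p = 0.026), in libraries whose red cell markers were lower, and their part was not tested. None of these lists had a member called in adults by edgeR.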
